A study of Mus musculus with 5 samples.

Results

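The BCL2 family sets the threshold at which a cell dies through its mitochondria, and 10 of its genes were read in proliferating C2C12 cells, an immortalised mouse myoblast line used as a stand-in for muscle progenitors. The members were chosen by name: the survival genes Bcl2, Bcl2l1 and Mcl1, the effector genes Bax and Bak1, and the BH3-only genes Bid, Bad, Bbc3, Pmaip1 and Bcl2l11. All 10 were found among the 23361 genes of the deposited table, and all 10 averaged 1 FPKM or more over the libraries, as did 11128 genes in all. FPKM counts fragments per kilobase of transcript and is scaled between libraries. In each library the median ratio of genes to their mean over the libraries was 0.998 to 1.00. Summed FPKM ran from 563092 to 591832. Each of 5 conditions had 1 library: 72 h of a short hairpin against PKM2 (shPKM2) or of a control hairpin (shControl), or 8 h of vehicle, shikonin or TEPP-46. The medium of all cultures was high-glucose DMEM with serum. PKM2 is a splice form of pyruvate kinase, shikonin, a naphthoquinone from plants, serves as its inhibitor, and TEPP-46 is known as an activator of it. The hairpins' sequences, the delivery of the hairpins, the vehicle and the doses are not in the labels, and hairpin and compound libraries differ in duration as well as in agent.

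With 1 library per condition no difference has a replicate check and no test was made. Counting intervals and standard errors (SE) cover the sampling of reads only, not the variation between cultures or library preparations. The estimated depth, which follows the scaling of the deposited values, was 22.6 to 31.2 times 1000000 reads per library. All 7 myoblast markers (among them Myod1, Myf5 and Des) were present, with a summed level of 372 to 631 FPKM per library. Markers of blood and immune cells summed to at most 0.0875 FPKM, and those of endothelial cells to at most 0.551 FPKM. Of 3 epithelial markers only Krt14 passed 1 FPKM, at 2.99 FPKM in shControl and 3.89 FPKM in shPKM2 against 9.78 to 15.9 FPKM in the 8 h libraries, and Epcam was at or near 0. The part of this marker in the results was not tested. Pkm, the gene of PKM2, measured 1041 FPKM in shPKM2 and 2061 FPKM in shControl, a ratio of 0.505, and 1198 to 1501 FPKM in the 8 h libraries. The 2 control libraries differed from each other: 4.14% of genes were at least 2-fold apart between shControl and vehicle. In the bulk RNA of a culture, a higher level per cell and a larger share of cells with a high level cannot be told apart.

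In healthy cells the survival proteins BCL2, BCL-XL (from Bcl2l1) and MCL1 hold BAX and BAK in check at the outer mitochondrial membrane. BH3-only proteins carry a single short helix, the BH3 domain, which binds into a groove of the survival proteins. Some of them also switch BAX and BAK on directly. When the effectors form pores, cytochrome c leaves the mitochondria and caspases are activated. Much of the control lies in the proteins (BID is cleaved by caspase 8, BAD is held by 14-3-3 proteins when phosphorylated, MCL1 is quickly degraded). PUMA (from Bbc3), NOXA (from Pmaip1) and BIM (from Bcl2l11) are known for control at the level of transcription, by p53, by the stress factors ATF4 and CHOP, and by FOXO factors.

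The start regions of 3 genes are shown because these genes had the lowest and the highest ratios of shikonin to vehicle among the members. Each is the 250 bases before a RefSeq transcript start (GRCm38.p6, read 5′ to 3′ on the gene's strand), with matches to any searched motif in capitals. Bcl2l11 lies on chromosome 2 (plus strand), and its first start region is chr2:128125788-128126037. Bbc3 lies on chromosome 7 (plus strand), and the region of the second of its 3 starts is chr7:16310011-16310260, inside the gene model but in none of its annotated exons. This start is shown because it holds the rarer of the motifs found at Bbc3, and the other 2 starts hold 5 and 7 SP1 matches at a GC content of 76.4% and 81.6%. Bcl2 lies on chromosome 1 (minus strand), with the region chr1:106714291-106714540.
Bcl2l11: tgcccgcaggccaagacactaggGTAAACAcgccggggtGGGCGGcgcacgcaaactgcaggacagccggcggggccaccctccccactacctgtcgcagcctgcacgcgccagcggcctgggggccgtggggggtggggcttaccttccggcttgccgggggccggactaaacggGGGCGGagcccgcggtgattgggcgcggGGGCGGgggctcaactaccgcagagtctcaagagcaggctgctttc
Bbc3: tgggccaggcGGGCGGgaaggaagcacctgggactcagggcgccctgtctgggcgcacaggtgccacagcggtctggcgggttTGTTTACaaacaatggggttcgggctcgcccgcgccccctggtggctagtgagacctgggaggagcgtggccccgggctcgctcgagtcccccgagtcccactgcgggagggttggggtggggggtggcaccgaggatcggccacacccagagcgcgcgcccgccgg
Bcl2: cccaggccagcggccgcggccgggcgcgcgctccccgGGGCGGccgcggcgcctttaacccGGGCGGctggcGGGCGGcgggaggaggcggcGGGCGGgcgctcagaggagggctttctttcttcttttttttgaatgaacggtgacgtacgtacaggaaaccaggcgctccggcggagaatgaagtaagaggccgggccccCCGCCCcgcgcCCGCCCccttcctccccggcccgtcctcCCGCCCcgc

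The motifs were searched on both strands over 15 start regions of 9 members, and Pmaip1 was not searched. The FOXO motif GTAAACA, which 3.17% of 32851 mouse start regions of this length hold, was found 227 bases before the first Bcl2l11 start and, as TGTTTAC, 167 bases before the second Bbc3 start. It was in no other of the 15 regions. The SP1 motif GGGCGG, held by 32.7% of all regions, occurred 7 times before Bcl2, 3 times before the first Bcl2l11 start and 1 time in the Bbc3 region shown. A heat shock motif (GAANNTTC, in 6.69% of all regions) lay 30 bases before the first Bad start. There it shares letters with an SP1 match. An antioxidant response motif (TGACNNNGC, in 10.2%) lay 127 bases before the third Bcl2l1 start, within the gene. A core of the p53 half-site (GGGCATG, in 3.20%), the ATF4 and CHOP motif (TGATGNAA, in 3.45%), the AP-1 motif (TGANTCA, in 6.75%) and TATAAA (in 12.4%) were in none of the 15. GC content was 74.8% before Bcl2, 72.0% before the first Bcl2l11 start and 72.4% in the Bbc3 region shown, against a median of 52.4% over all regions. A match is a run of letters and not a shown binding site.

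The effector gene Bax had the most abundant transcript of the family in every library. Bax measured 170 FPKM with vehicle, 190 FPKM with shikonin, 159 FPKM with TEPP-46, 207 FPKM in shControl and 225 FPKM in shPKM2. Mcl1 followed at 72.7 to 80.8 FPKM, and Bak1 at 52.9 to 77.7 FPKM. Mcl1 lay above Bak1 in 4 of the 5 libraries, and Bak1 above Mcl1 in shPKM2. Bid, at 31.0 to 46.8 FPKM, held the fourth place in each library. Bcl2l1 (19.9 to 41.8 FPKM) and Bad (17.9 to 32.0 FPKM) exchanged the next places: Bad lay above Bcl2l1 with TEPP-46 and vehicle and below it in the other 3 libraries. In vehicle these 2 genes were 28.3 and 27.4 FPKM, too close to be put in order. Pmaip1 came next in every library (8.55 to 11.3 FPKM), and Bcl2 was the lowest in all 5 (0.661 to 1.99 FPKM). Bcl2l11 and Bbc3 lay between them, with Bbc3 above Bcl2l11 only with TEPP-46. These values are per length of transcript and may be compared between genes. As a limit, 7 of the 10 members did not resolve into whole reads, while Bcl2l1, Bbc3 and Pmaip1 did. The search stopped at 4000 reads, below the estimates for Mcl1 with vehicle (4851) and Bak1 in shPKM2 (4011). For such abundant genes a failure to resolve need not be a flaw of the values. Exons of 5 members (Bcl2, Bax, Bak1, Bid and Bad) overlap those of other genes, so reads of the partner may be counted with them. A gene value also sums splice forms, such as the long and short forms of Bcl2l1 and Mcl1, which act in opposite directions.

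**Figure D1:**
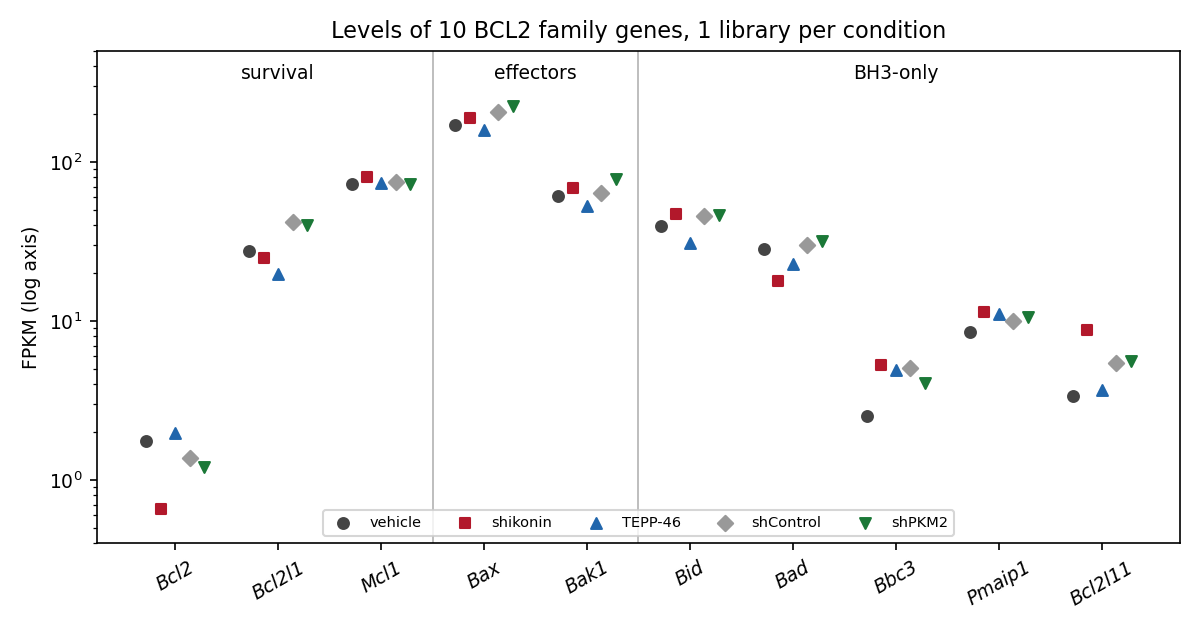
FPKM on a log axis for each of the 10 genes, 1 point per library, with no error bars since each condition had 1 library. Bax is highest and Bcl2 lowest in each library, Mcl1 spans 72.7 to 80.8 FPKM, and the shikonin points of Bcl2 and Bcl2l11 lie apart from the other 4.

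Mcl1 made up most of the survival transcripts. The 3 survival genes summed to 102 FPKM with vehicle, 106 FPKM with shikonin, 95.1 FPKM with TEPP-46, 118 FPKM in shControl and 114 FPKM in shPKM2. The Mcl1 share of that sum was 71.4% with vehicle, 76.1% with shikonin and 77.0% with TEPP-46, but 63.5% in shControl and 63.8% in shPKM2. The lower share in the hairpin libraries goes with their higher Bcl2l1. The summed effectors exceeded the summed survival genes 2.23 to 2.65 times, least with TEPP-46 and most in shPKM2. The summed BH3-only genes stayed below the survival sum in each library, at 0.772 (TEPP-46) to 0.863 (shPKM2) times that sum. The class sums follow their most abundant genes, Mcl1, Bax and Bid, and hide the low genes. Bbc3, Bcl2l11 and Pmaip1 together came to 14.5 FPKM with vehicle, 25.4 FPKM with shikonin, 19.7 FPKM with TEPP-46, 20.5 FPKM in shControl and 20.3 FPKM in shPKM2. Vehicle was thus the lowest library and shikonin the highest for these 3 genes. Their share of the BH3-only sum was 17.6% with vehicle, 28.1% with shikonin, 26.8% with TEPP-46, 21.3% in shControl and 20.6% in shPKM2.

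**Figure D2:**
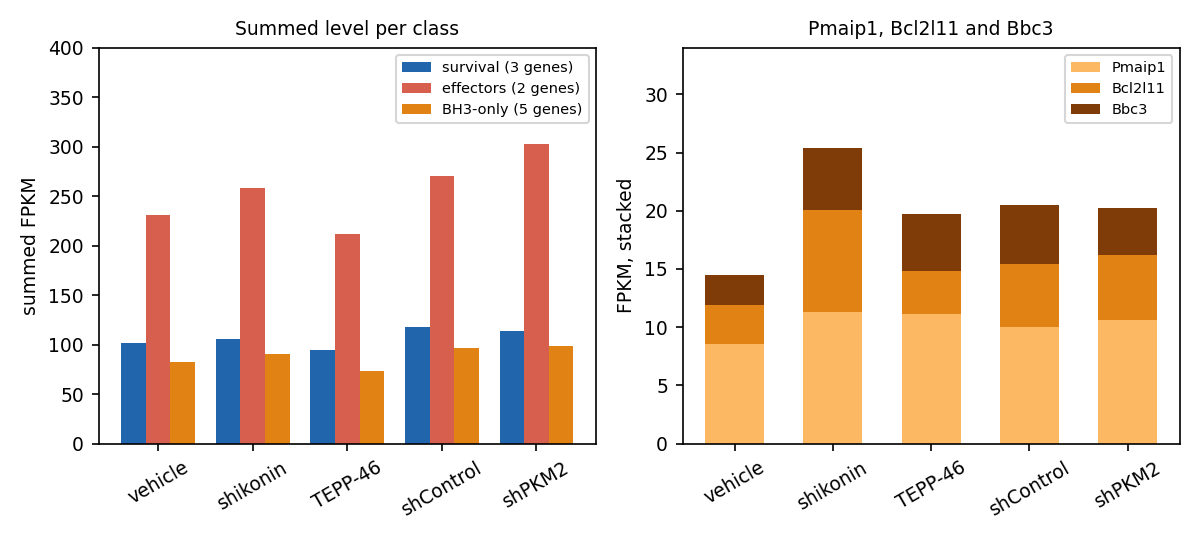
Left, summed FPKM of the survival, effector and BH3-only genes per library (1 library per bar, no error bars). Right, FPKM of Pmaip1, Bcl2l11 and Bbc3 stacked per library, totalling 14.5 with vehicle and 25.4 with shikonin.

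Of the 3 comparisons of a treated library with its own control, shikonin against vehicle held the widest member difference. Differences are given on the log2(FPKM + 1) scale, which shrinks those of low genes, and ratios are given without the added 1. Only Bcl2l11 was at least 2-fold different on that scale, 1 of 10 members, where 7.5% of all genes were. At 1.5-fold there were 4 members (Bcl2l11 and Bbc3 higher, Bcl2 and Bad lower), against 25.3% of all genes. With 10 members, neither count is read as particular to the family. The median difference was -0.14 for survival genes, 0.17 for effectors and 0.37 for BH3-only genes, beside -0.03 for all genes tested. Of the 7 effector and BH3-only genes 6 stood higher, and 47.6% of all genes did. Between shControl and vehicle all 7 stood higher (median 0.21), where 46.9% of all genes did, so such a tilt was not seen with shikonin alone. After rescaling to equal sums Bak1 turned to -0.002 there and Bad fell to 0.002. Both comparisons share the vehicle library. With shikonin against vehicle all 7 myoblast markers stood lower (median -0.76), Myod1 at 26.1 FPKM against 63.2 FPKM. Their part in these differences was not tested.

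Bcl2l11 encodes BIM, a BH3-only protein able to bind all survival members. Its level was 3.36 FPKM with vehicle, 8.72 FPKM with shikonin, 3.67 FPKM with TEPP-46, 5.43 FPKM in shControl and 5.62 FPKM in shPKM2. Shikonin was the highest library and vehicle the lowest, with both hairpin libraries between them. The ratio of shikonin to vehicle was 2.60 (95% counting interval 2.18 to 3.09), a difference of 1.16, and 2.75% of all genes had a higher one. Against shControl the shikonin library stood only 0.60 higher, below 2-fold.

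Bbc3 encodes PUMA, a BH3-only protein known as a target of p53. It was read from 79 fragments with vehicle (95% Poisson interval 63 to 98), 119 with shikonin (99 to 142), 119 with TEPP-46, 116 in shControl and 106 in shPKM2. These are the smallest whole numbers that fit the 5 values, and the intervals rest on them. In FPKM the levels in the same order were 2.54, 5.29, 4.90, 5.04 and 4.06. Vehicle is the library that stood apart, and the other 4 lay close together. The ratio to vehicle was 2.08 with shikonin (counting interval 1.55 to 2.80), 1.92 with TEPP-46 (1.44 to 2.59) and 1.98 in shControl (1.48 to 2.67). Shikonin and TEPP-46 share the vehicle library, so both ratios rest on its 79 fragments. The 2 compounds themselves differed by a ratio of 1.08 (0.831 to 1.41).

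Pmaip1, on chromosome 18, encodes NOXA, a BH3-only protein that mainly binds MCL1. It measured 8.55 FPKM with vehicle, 11.3 FPKM with shikonin, 11.1 FPKM with TEPP-46, 10.0 FPKM in shControl and 10.6 FPKM in shPKM2. Vehicle was again the lowest, and the other 4 spanned little. Its ratio to vehicle was 1.33 with shikonin (counting interval 1.20 to 1.47) and 1.30 with TEPP-46 (1.17 to 1.44). Mcl1 transcript exceeded Pmaip1 transcript 8.51 times with vehicle, 7.13 times with shikonin, 6.58 times with TEPP-46, 7.48 times in shControl and 6.87 times in shPKM2. Vehicle was the highest of the 5.

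Bcl2 and Bad stood lower with shikonin. Bcl2, the founding survival gene, was at 1.75 FPKM with vehicle, 0.661 FPKM with shikonin, 1.99 FPKM with TEPP-46, 1.39 FPKM in shControl and 1.20 FPKM in shPKM2. The shikonin library was the lowest of the 5. Its ratio to vehicle was 0.379 (counting interval 0.289 to 0.490), the lowest ratio of any member in any comparison with a control, though on the log2(FPKM + 1) scale the difference was -0.73. Bcl2 was so low that 97.0% of the genes tested had a higher mean. Bad, a BH3-only gene whose protein binds BCL2 and BCL-XL, was at 28.3 FPKM with vehicle, 17.9 FPKM with shikonin, 22.8 FPKM with TEPP-46, 29.8 FPKM in shControl and 32.0 FPKM in shPKM2. Both compound libraries lay below the other 3, with ratios to vehicle of 0.633 (0.561 to 0.713) for shikonin and 0.803 (0.720 to 0.894) for TEPP-46.

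The abundant members differed little between shikonin and vehicle. Mcl1 had 80.8 FPKM against 72.7 FPKM with vehicle (0.15). Bax, Bak1 and Bid stood 0.16, 0.17 and 0.24 higher, and Bcl2l1 stood 0.14 lower (-0.14). Against shControl in place of vehicle, Bax lay on the other side (-0.12) and Bcl2l1 stood much lower (-0.73). Bok, a further effector-like gene outside the 10, had a wider difference than any of them: 75.3 FPKM with vehicle, 26.9 FPKM with shikonin, 43.5 FPKM with TEPP-46, 48.9 FPKM in shControl and 59.1 FPKM in shPKM2. Its difference with shikonin was -1.45, and vehicle was the highest of the 5 libraries.

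**Figure D3:**
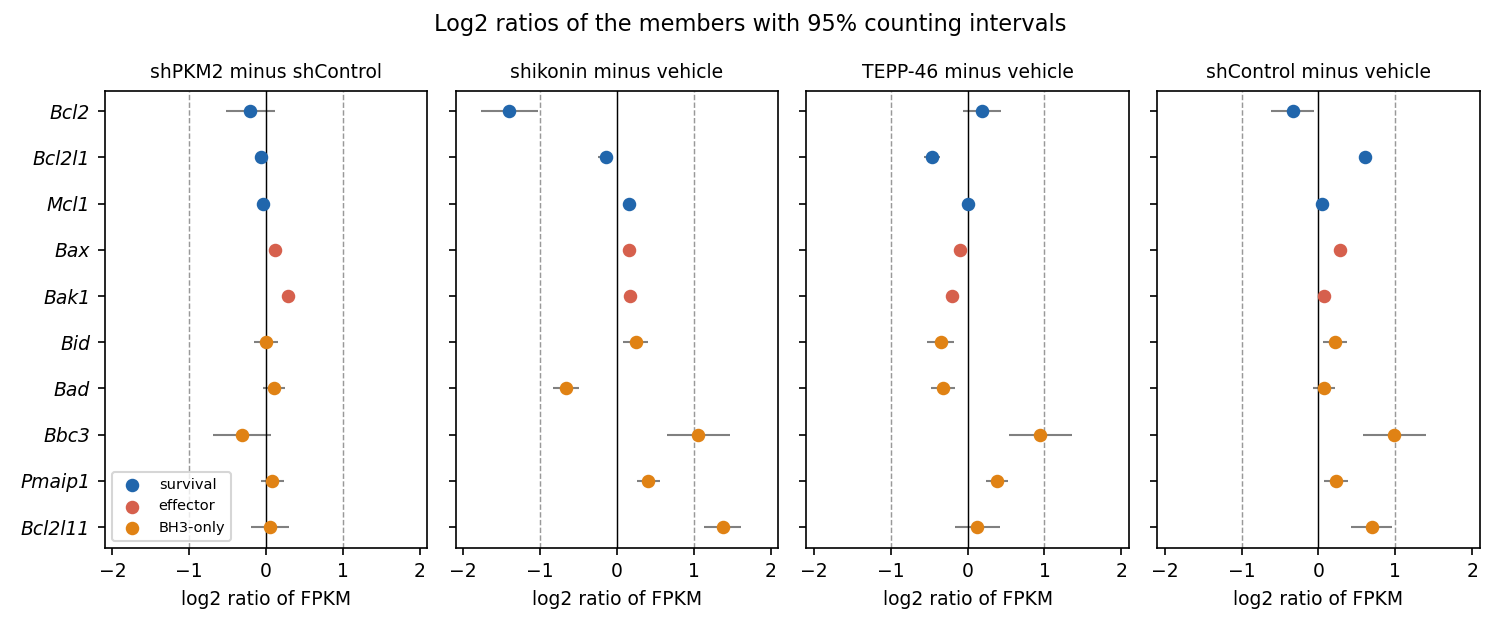
Log2 ratio of FPKM without an added value for each member in 4 comparisons, with the bar showing the 95% counting interval of the 2 libraries and dashed lines at 2-fold. With shikonin Bcl2l11 and Bbc3 lie on the right and Bcl2 and Bad on the left, while Bbc3 has nearly the same ratio with shikonin (2.08), with TEPP-46 (1.92) and in shControl (1.98).

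With TEPP-46 no member was at least 2-fold different from vehicle, where 1.59% of all genes were, and Bbc3 alone was at least 1.5-fold different (0.73, against 5.45% of all genes). For Bbc3, 2.17% of all genes had a higher difference. Bcl2l1, which encodes BCL-XL, was lower: 19.9 FPKM against 27.4 FPKM, a ratio of 0.726 (counting interval 0.676 to 0.780) and a difference of -0.44. Only 4.51% of genes had a lower one. Bid stood at -0.34, Bad at -0.30, Bak1 at -0.19 and Bax at -0.09, so both effectors and 2 of 5 BH3-only genes lay below vehicle. Mcl1 had 73.2 FPKM against 72.7 FPKM with vehicle, and this difference of 0.01 turned to -0.01 after rescaling to equal sums, and Bcl2l11 differed by 0.10. The median over the 7 effector and BH3-only genes was -0.09, beside -0.0014 for all genes.

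Between the compounds, Bcl2l11 was the only member at least 2-fold different (1.06, higher with shikonin), where 7.28% of all genes were. The ratio was 2.37 (counting interval 1.98 to 2.86). Bcl2 was lower with shikonin, by a ratio of 0.333 (0.253 to 0.432), and these 2 genes were the members at least 1.5-fold apart, against 25.2% of all genes. Bid stood 0.58 higher with shikonin, Bak1 0.37, Bcl2l1 0.30 and Bax 0.25, and Bad stood lower (-0.33). Pmaip1 differed by a ratio of 1.02 (0.918 to 1.13), with a direction that turned after rescaling to equal sums. The doses are not known, so these values are not set as a comparison of strength.

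In the PKM2 knockdown the family hardly differed from its control. No member was at least 2-fold or at least 1.5-fold different between shPKM2 and shControl, where 0.62% and 1.84% of all genes were. Since few genes of any kind passed, neither count is read as particular to the family. The widest were Bak1, the second effector, at 77.7 FPKM against 63.7 FPKM (0.28, ratio 1.22, counting interval 1.16 to 1.28), and Bbc3 (-0.26, ratio 0.804, interval 0.612 to 1.06). For Bak1, 6.24% of genes had a higher difference. Bax stood at 225 FPKM against 207 FPKM (0.12). All 3 survival genes lay slightly below shControl: Bcl2 at -0.12, Bcl2l1 at -0.06 and Mcl1 at -0.04. After rescaling to equal sums Bcl2l1 and Mcl1 turned to 0.00 and 0.02. Bid, Bad, Pmaip1 and Bcl2l11 lay above shControl by at most 0.10, and after the rescaling Bad and Pmaip1 stood at 0.16 and 0.13. Of the 7 effector and BH3-only genes 6 stood higher, and 50.2% of all genes did.

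For most members, as for most genes tested, the hairpin libraries lay closer to each other than shControl lay to vehicle. Between shControl and vehicle no member was at least 2-fold different, and at 1.5-fold Bbc3 (0.77) and Bcl2l1 (0.59) were, against 11.4% of all genes. Bcl2l11 stood 0.56 higher and Bax 0.28 higher in shControl. Bcl2l1 was at 41.8 FPKM in shControl and 40.0 FPKM in shPKM2 against 19.9 to 27.4 FPKM in the 3 libraries of 8 h. Its difference between shControl and vehicle was exceeded by 7.93% of all genes. Hairpin and duration cannot be told apart here. The knockdown difference was wider than that between the control libraries for 2 of 10 members (Bak1 and Bad) and for 29.8% of all genes. This count is not read as particular to the family. For shikonin 8 members differed more from vehicle than the controls did from each other (all but Bcl2l1 and Bax), as did 63.0% of all genes, and Bbc3 did so only by 0.83 against 0.77. For TEPP-46 there were 4 (Bak1, Bid, Bad and Pmaip1), and 40.8% of all genes.

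Across all 5 libraries Mcl1 had the narrowest range of the family, 0.15 on the log2(FPKM + 1) scale, and 98.5% of all genes had a wider one. Bcl2l11 had the widest (1.16), followed by Bcl2l1 (1.03) and Bcl2 (0.85). The median range of all genes was 0.61, and 5 of the 10 members exceeded it. By the distance between centred log2 profiles over the 5 libraries, searched among 8338 genes, those nearest to Bcl2l11 were P4ha1 (distance 0.099), Syvn1 (0.115) and Malat1 (0.115). P4ha1, a collagen prolyl hydroxylase gene, stood at 45.5 FPKM with shikonin against 19.6 FPKM with vehicle. Nearest to Bcl2l1 were Cdc42ep5 (0.097), Rab13 (0.0999) and Mxra8 (0.131), and nearest to Bcl2 were Anp32b (0.036), Evl (0.049) and Synrg (0.067). With 5 points per profile many genes lie close to any pattern, and Bcl2 owes part of its closeness to the added 1.

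The genes of factors known to drive BH3-only genes were read beside them. Of 10 measured, 3 were at least 2-fold higher with shikonin, 4 with TEPP-46, 3 in shControl against vehicle and 0 in shPKM2 against shControl, where 7.5%, 1.59%, 4.14% and 0.62% of all genes were at least 2-fold different in either direction. None was at least 2-fold lower in these comparisons. Ddit3, which encodes CHOP, measured 28.0 FPKM with vehicle, 195 FPKM with shikonin, 243 FPKM with TEPP-46, 94.3 FPKM in shControl and 91.4 FPKM in shPKM2. Vehicle was the lowest of the 5 for Ddit3, as it was for Bbc3 and Pmaip1. Cebpb stood at 35.5 FPKM with vehicle and at 74.8 to 80.7 FPKM in the other 4 libraries. Atf4 was at 737 FPKM with TEPP-46 against 239 FPKM with vehicle, and at 407 FPKM with shikonin. Foxo3, a FOXO factor gene, was at 8.69 FPKM with shikonin, 6.54 FPKM with TEPP-46 and 4.50 FPKM with vehicle, and Foxo1 at 7.98, 5.21 and 4.82 FPKM. In shControl and shPKM2 Foxo3 was at 5.19 and 5.52 FPKM, and Foxo1, below vehicle, at 4.07 and 3.78 FPKM. Atf3 was at 6.39 FPKM with vehicle, 27.7 FPKM with shikonin, 45.9 FPKM with TEPP-46 and 18.6 FPKM in shControl. With shikonin E2f1 (-0.54), Hif1a (-0.23) and Jun (-0.02) lay below vehicle. Trp53, the p53 gene, spanned only 110 to 125 FPKM, and Trp63 and Trp73 were at or near 0. The part of these factors in the levels of the BH3-only genes was not tested.

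Genes acting beside and below the family were read from lists as well. Of all genes, 7.5% were at least 2-fold different with shikonin, 1.59% with TEPP-46 and 0.62% in shPKM2 against shControl. Between the compounds the share was 7.28%, and between shControl and vehicle 4.14%. The lists are short, and their counts are not read as particular to a list. Of 8 measured further BCL2 relatives, Bok alone was at least 2-fold different with shikonin (lower). Bcl2a1a and Bcl2l10 were listed at 0 in all libraries, and Bcl2a1b, Bcl2a1d, Hrk and Bcl2l14 were at or near 0. Bnip3, a mitophagy gene also known as a hypoxia target, was at 47.7 FPKM in shControl and 27.7 FPKM in shPKM2 against 7.22 FPKM with vehicle. None of the 13 genes of cytochrome c release and the caspase cascade was at least 2-fold different in any of the 5 comparisons, Htra2 being the lowest with shikonin (-0.77) and Diablo the highest (0.49). Of 10 genes of the death receptor arm 3 were at least 2-fold higher with shikonin: Tnfrsf10b, the TRAIL receptor gene (46.7 FPKM against 18.2 FPKM), Fas (2.76 FPKM against 0.601 FPKM) and Tnfrsf21 (13.0 FPKM against 5.71 FPKM). With TEPP-46 there were 0. Fas was also higher in shControl than in vehicle (2.52 FPKM), where Tnfrsf21 was lower (1.98 FPKM). Of 4 measured caspase inhibitors Birc5, the survivin gene and a cell cycle gene, was at least 2-fold lower with shikonin (43.7 FPKM against 161 FPKM). Among 15 genes that act on the stability or placing of MCL1, BIM, BAD and NOXA proteins only Trib3 was at least 2-fold higher, with shikonin (1.76) and with TEPP-46 (3.49). Akt1, whose kinase phosphorylates BAD, stood at -0.75 with shikonin. Between shPKM2 and shControl none of these lists held a gene at least 2-fold different, the lowest being Bnip3 (-0.76) and Fas (-0.74).

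**Figure D4:**
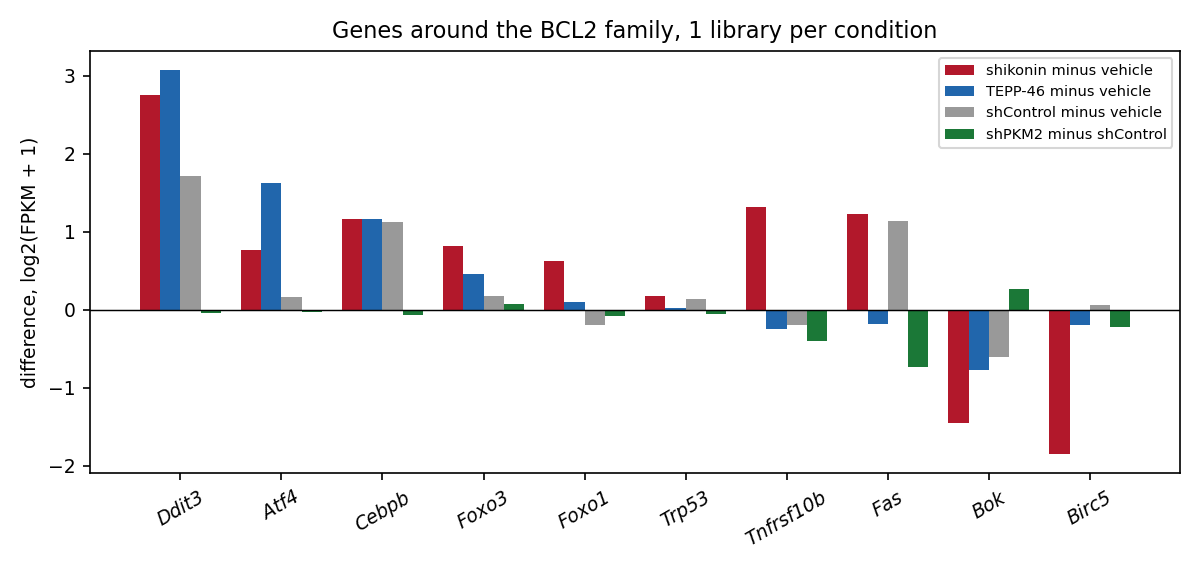
Difference on the log2(FPKM + 1) scale for 10 genes around the family, picked after their values were seen, in 4 comparisons with 1 library per condition and no error bars. Ddit3 is higher with both compounds (2.75 and 3.07) and in shControl (1.72), Tnfrsf10b with shikonin (1.31) but not with TEPP-46 (-0.24), and Birc5 is lower with shikonin (-1.85).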

How the data were processed

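Polyadenylated RNA was sequenced on a NextSeq500 after NEBNext library preparation, per the labels' protocols. Trim Galore 0.6.0, cutadapt, FastQC and DESeq2 1.26.0 and the build GRCm38 are named in the submitters' processing notes, while aligner, quantifier, gene annotation and strandedness are not stated there. Expression was deposited as FPKM in 1 table with 1 column per library, each matched to its condition by name (the shControl column carries an unexplained number).

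Differences of log2(FPKM + 1) were taken between libraries for genes averaging 1 FPKM or more, and called at 2-fold. The most frequent ratio of low values gave the value of 1 read in each library relative to vehicle. The smallest whole reads that fit (within 0.02) were found for 74.0% of 1799 low genes and 3 members. For the members the search went up to 4000 reads. Reads of the others were estimated from the depth and the median GENCODE M21 transcript length, so their intervals are approximate. The 95% intervals cover counting error only. Exons of Bcl2, Bak1, Bid and Bad overlap genes on the opposite strand and those of Bax a gene on the same strand, so their reads may be mixed. Promoters came from RefSeq (GRCm38.p6). Steps were tested on simulated data with Python 3.11.15, numpy 2.4.6, pandas 2.3.3 and scipy 1.17.1. The members and gene lists were chosen with earlier results of these data known. Named genes were the 10 members, list genes at least 2-fold different or at the end of a list, and the 3 genes nearest in profile to each of the 3 members of widest range (mean of at least 5 FPKM, over 300 nt); others named in the text were chosen after their values were seen. Alternatives were the added value, the filter, equal sums, the fold and the control library.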

Additional observations from a re-analysis of the deposited data

How the results depend on the processing

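Over all comparisons 2 member differences reached 2-fold, both of Bcl2l11. No filter, a minimum mean of 5 FPKM and rescaling to equal sums (TPM) left the counts as they were, and 44 of 50 member differences kept their direction under rescaling, the other 6 being under 0.07 in size. With an added 0.1 FPKM the counts were 3 for shikonin against vehicle (Bcl2, Bbc3 and Bcl2l11), 2 between the compounds and 5 in all. With an added 5 FPKM they were 0, 0 and 0. A 1.5-fold rule gave 4 for shikonin, 1 for TEPP-46, 2 between the compounds, 2 between the controls and 9 in all. With shControl as the control the count was 0 for shikonin and 1 for TEPP-46 (Bcl2l1, -1.03), and Bbc3 then stood at 0.06 and -0.04. With vehicle as the control of shPKM2 it was 0, with Bcl2l1 at 0.53 and Bbc3 at 0.51, opposite to their direction against shControl. The cause of these shifts was not tested. Depth limits Bbc3 and Bcl2 most, with 79 fragments of Bbc3 with vehicle and an estimated 75 of Bcl2 with shikonin. No paired analysis was possible because each condition had 1 library.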
